A study of Mus musculus with 6 samples.

Results

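The fibrous sheath and outer dense fibre genes described here are Akap3, Akap4, Fscb, Ropn1, Ropn1l, Spa17, Odf1, Odf2, Odf3 and Odf4. They were chosen by name, and every array feature whose gene name or synonym was one of these 10 was used. This gave 15 probes, and all 10 genes and all 15 probes passed the filter on dim probes, among 18976 genes and 28306 probes tested. Total RNA had been taken from whole testes of Prss37 knockout mice (Prss37-/-) and wild-type mice, 3 males of each genotype, on a C57BL/6 background and aged 6 to 8 weeks. Each testis RNA was labelled with a single dye and hybridised to 1 Agilent mouse array. Prss37 is a testis gene of the trypsin-like serine protease family, and the study asked which testis transcripts differ when it is missing. Which part of the gene was deleted is not given in the sources used here, and the description of the knockout samples names Prss55 where their titles name Prss37, so samples were grouped by title.

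The sperm tail is built around a microtubule core, the axoneme. In the midpiece and the principal piece the axoneme is flanked by the outer dense fibres, stiff keratin-like rods, and in the principal piece these are wrapped by the fibrous sheath, a set of columns and ribs that anchors protein kinase A and glycolytic enzymes. The RNAs for these proteins are made mainly in round and elongating spermatids, when the tail is assembled. In a whole testis their level therefore depends largely on how many spermatids there are and on how much RNA each holds. Odf2, whose product also has forms at the centrosome, need not be limited to these cells. In bulk RNA, fewer spermatids and less RNA per spermatid cannot be told apart.

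AKAP4 and AKAP3 are the main structural proteins of the fibrous sheath and bind the regulatory subunits of protein kinase A, and FSCB is a sheath protein that binds the calcium-binding sheath protein CABYR. The 250 bases before the start site of these 3 genes, from RefSeq (GRCm38.p6), are shown because they share the letters TGATGTCA close to the start, printed in capitals. The motif was picked after these sequences had been read, and it differs by a single base from TGACGTCA, the cAMP response element, the sequence bound by the spermatid factor CREM.
Akap3 (chr6:126852848-126853097, plus strand): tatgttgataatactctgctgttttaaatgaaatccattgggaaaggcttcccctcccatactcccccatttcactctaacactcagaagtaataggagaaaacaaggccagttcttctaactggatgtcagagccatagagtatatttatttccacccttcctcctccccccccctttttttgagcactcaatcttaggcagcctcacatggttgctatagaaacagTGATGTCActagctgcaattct
Akap4, the more upstream of its start sites (chrX:7067265-7067514, plus strand): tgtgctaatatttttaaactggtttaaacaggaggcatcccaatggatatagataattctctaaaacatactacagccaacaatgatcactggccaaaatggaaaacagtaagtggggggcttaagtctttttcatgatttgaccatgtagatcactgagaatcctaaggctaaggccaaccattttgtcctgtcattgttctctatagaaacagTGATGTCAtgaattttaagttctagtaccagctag
Fscb (chr12:64474899-64475148, minus strand): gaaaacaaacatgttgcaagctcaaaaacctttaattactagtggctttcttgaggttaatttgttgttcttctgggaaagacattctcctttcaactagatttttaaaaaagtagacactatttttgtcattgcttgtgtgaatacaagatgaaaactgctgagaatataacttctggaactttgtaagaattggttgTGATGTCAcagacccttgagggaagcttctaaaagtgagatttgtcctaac
In these windows the motif began at -22 in Akap3, -35 in Akap4 and -51 in Fscb, counted from the start site. The window of the other Akap4 start site (chrX:7067960-7068209, plus strand) held neither TGATGTCA nor CCAAT. The Akap3 and Akap4 windows share a stretch of 20 bases that ends in it, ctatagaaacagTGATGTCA, which occurred in 2 of 32851 windows of all genes, those of Akap3 and Akap4. That stretch was taken from these same 2 windows, so its presence in both was fixed in advance. On either strand, TGATGTCA was held by 2.93% of all windows and by 3 of the 9 members that have an entry. Members are counted here and below as genes with the letters in any of their windows (14 windows for the 9). The background is counted in single windows, so the shares are of unlike units. The unchanged element TGACGTCA was in 0 of the 9, against 1.55% of all windows. Its half-site TGACG was in 1 of the 9 (Odf2), against 17.8% of all windows. CCAAT was in 4 of the 9 (Akap3, Akap4, Fscb and Odf2), against 33.8% of all windows. GGGCGG was in 3 of the 9 (Odf2, Ropn1l and Spa17), against 32.7%. TATAAA was in 0 of the 9, against 12.4%. CpG content varied among the members: Akap3, Akap4 and Fscb had 0 CpG dinucleotides in these windows, Odf3 had 1, Odf4 and Ropn1 had 2 each, Spa17 had 13, Ropn1l 18 and the 4 Odf2 windows 22 to 35, with a median of 6 over all windows. These matches describe letters, and no binding was measured.

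No member passed the test. At a limma adjusted p under 0.05, 0 of 10 members were called, against 467 of 18976 genes (2.46%), of which 1.21% were higher and 1.25% lower in the knockout. At an unadjusted limma p under 0.05, 1 of 10 members passed (Odf1), against 4532 of 18976 genes. The log2 differences, knockout minus wild type, ranged from -0.12 (Akap3) to 0.29 (Odf1), 7 of 10 lay above 0 (4 of 10 after quantile normalization, where Odf4, Ropn1l and Spa17 changed sign), and their median was 0.03 (all genes, -0.0024). That median was -0.018 after quantile normalization, -0.016 in the deposited table and -0.015 without wild-type replicate 2, and it was 0.10 without wild-type replicate 3 and 0.07 without knockout replicate 1. Their median size without regard to sign was 0.081, against 0.091 for all genes. The 3 knockout and 3 wild-type values did not overlap for 2 of 10 members, Akap3 and Odf1, against 31.6% of all genes measured on every array.

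All levels below are scaled signals, that is, multiples of the 75th percentile of the array's processed signal, and differences are on the log2 scale. A level is comparable between arrays for 1 probe but not between probes. Arrays had 69.2% to 71.4% of spots well above background and 0 saturated spots. The label check rests on Prss37, whose scaled signal was 41.8, 45.6 and 44.2 in the 3 knockout testes and 71.8, 66.7 and 76.9 in the wild-type testes. The Prss37 difference was -0.71 (SE 0.07, limma adjusted p = 0.024), and its probe stayed well above background in every knockout testis. This call was lost, with adjusted p of 0.072, 0.12 and 0.13, without knockout replicate 1, 2 or 3, at 0.097 without wild-type replicate 1 and at 0.093 with no filter on dim probes, while every wild-type value was above every knockout value. Where that probe (chr6:40464853-40464912, mm9) lies relative to the deletion was not given in the sources used here.

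**Figure D1:**
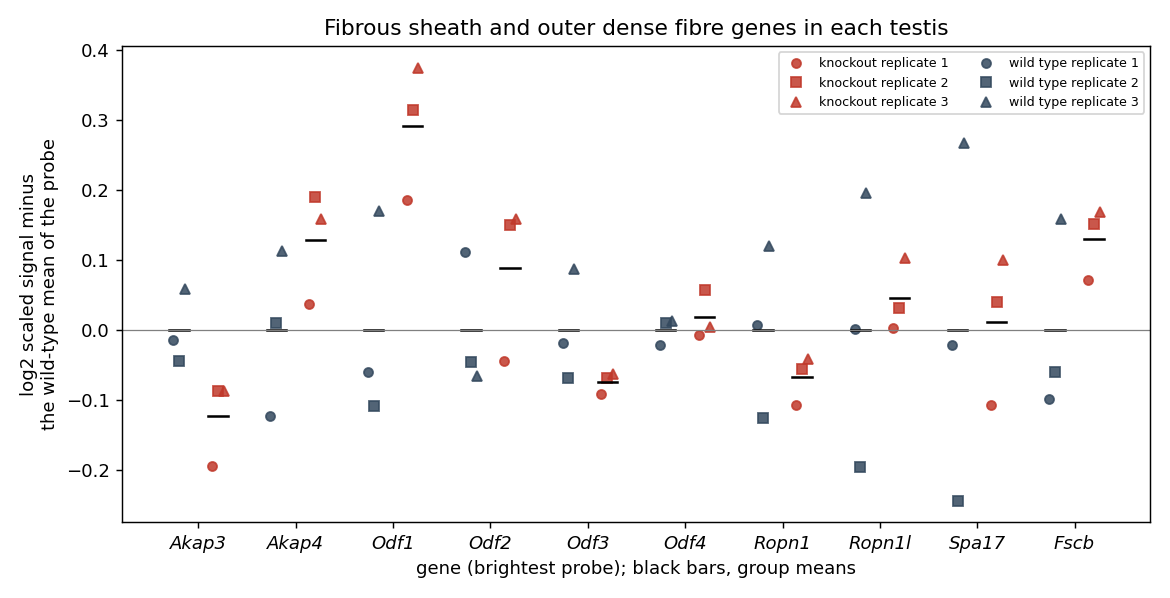
Log2 scaled signal of the brightest probe of each of the 10 genes in each testis (red, 3 knockout; dark blue, 3 wild type), minus that probe's wild-type mean; symbols mark replicates and black bars the group means. The groups are apart for Akap3 (knockout lower) and Odf1 (knockout higher) and overlap for the other 8 genes, and knockout replicate 1 (red circles) is the lowest knockout testis for all 10.

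Among the sheath scaffolds, Akap3 was slightly lower in every knockout testis and Akap4 and Fscb had positive differences, none past the test. Akap3 (probe at chr6:126816717-126816776, mm9) measured 17.0, 18.3 and 18.3 in the knockout testes and 19.3, 18.9 and 20.3 in the wild-type testes. Its groups did not overlap, with a mean of 17.9 ± 0.755 (SD, n = 3) against 19.5 ± 0.718 (SD, n = 3), 1.09-fold lower in the knockout. The Akap3 difference was -0.12 (SE 0.05, 95% interval -0.25 to 0.0030, limma adjusted p = 0.22), and it was -0.11 on slide 1 and -0.15 on slide 2. Slide 1 held replicates 1 and 2 of both genotypes and slide 2 held replicate 3 of both.

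Akap4, its sheath partner on the X chromosome (chrX:6654892-6654951, mm9), gave 45.0, 50.1 and 49.0 in the knockout testes and 40.3, 44.2 and 47.4 in the wild-type testes. The highest wild-type testis lay above the lowest knockout testis. The Akap4 difference was 0.13 (SE 0.08, 95% interval -0.06 to 0.31, limma adjusted p = 0.36), so a 1.24-fold rise and a small fall are both inside the interval. Fscb (chr12:65572567-65572626, mm9) gave 12.2, 12.9 and 13.1 in the knockout and 10.9, 11.1 and 13.0 in wild type, where replicate 3 reached the knockout values. The Fscb difference of 0.13 (SE 0.08, interval -0.06 to 0.32, adjusted p = 0.36) was 0.19 on slide 1 and 0.010 on slide 2.

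ROPN1, ROPN1L and SPA17 share a docking domain like that of the protein kinase A regulatory subunit, through which they bind AKAPs such as AKAP3. In these 3 genes the wild-type testes spread more than the knockout testes and enclosed all of their values. Ropn1 (chr16:34677306-34677365, mm9) was at 55.4, 57.4 and 58.0 in the knockout and at 60.0, 54.7 and 64.9 in wild type. All 3 knockout values lay between the lowest and the highest wild-type value, and the difference was -0.07 (SE 0.07, interval -0.24 to 0.10, limma adjusted p = 0.60).

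Ropn1l was read by a pair of probes. The brighter (chr15:31370980-31371039, mm9) was at 135, 137 and 144 in the knockout and 134, 117 and 154 in wild type, where replicate 2 was the lowest and replicate 3 the highest of all 6 testes. The Ropn1l difference there was 0.05 (SE 0.10, interval -0.20 to 0.29, limma adjusted p = 0.83). The other Ropn1l probe, whose 60 bases lie across an intron (chr15:31371102-31373072, mm9), had a mean of 92.4 ± 1.92 (SD, n = 3) in the knockout and 92.8 ± 10.67 (SD, n = 3) in wild type, with wild-type replicates 2 and 3 again at the ends. Spa17 (chr9:37413387-37413446, mm9) repeated this order, with 25.3, 28.1 and 29.3 in the knockout against 26.9, 23.1 and 32.8 in wild type. For Spa17 the interval was the widest of the 10 genes, -0.32 to 0.34 around a difference of 0.011 (SE 0.13, limma adjusted p = 0.97), and within slides it was 0.10 (slide 1) and -0.17 (slide 2).

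ODF1 is a main protein of the outer dense fibres, a small heat shock protein relative that binds ODF2. Odf1 had the smallest p of the 10 genes. It was read by a pair of neighbouring probes, whose first 30 bases are shown because both gave the same order of the groups.
Odf1, probe at position 232 of its transcript record (chr15:38149190-38149249, mm9, plus strand): cgcactgagttgtcttttggacagtgttag
Odf1, probe at position 149 (chr15:38149107-38149165, mm9, plus strand): tgagaagagcttaggaacaattttttcctc
The brighter Odf1 probe, at 232, measured 13.5, 14.7 and 15.4 in the knockout testes and 11.3, 11.0 and 13.3 in the wild-type testes. Every knockout testis was above every wild-type testis, though wild-type replicate 3 lay just below knockout replicate 1. Odf1 averaged 14.5 ± 0.962 (SD, n = 3) in the knockout and 11.9 ± 1.26 (SD, n = 3) in wild type, a 1.22-fold ratio with a 95% interval of 1.05 to 1.43. The Odf1 difference of 0.29 (SE 0.09) had an unadjusted limma p of 0.018 and an adjusted p of 0.13, and so missed the threshold over all genes. The Odf1 probe at 149 gave 2.32, 2.53 and 2.63 against 1.97, 2.09 and 2.22, again with no overlap, and a difference of 0.25 (SE 0.07), with a limma adjusted p of 0.11 over probes. Both probes read the same RNA of the same mice and are not separate evidence. Within slides the difference was 0.34 and 0.20 for the probe at 232 and 0.26 and 0.25 for the probe at 149.

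ODF2 is the other main fibre protein and also has forms at the centrosome. Odf2 was read by 4 probes in several transcript records. The first 30 bases of each are shown because their differences were not all of one sign. The polyadenylation signal AATAAA is in capitals where these bases hold it.
Odf2, position 2295, transcript variant 3 (chr2:29777979-29778038, mm9, plus strand): cacttcctttttcttggctgccgatttctg
Odf2, position 705, a cDNA clone record (chr2:29750521-29750580, mm9, plus strand): ggctgaAATAAAaatgctcccttaatatta
Odf2, position 3045, transcript variant 4 (chr2:29786407-29786466, mm9, plus strand): ccacattaggtaccagattttgaaatccct
Odf2, position 3403, transcript variant 4 (chr2:29786765-29786824, mm9, plus strand): gctacgaatgtcatgaaAATAAAtacattg
The brightest Odf2 probe, at 2295, gave 194, 222 and 223 in the knockout and 216, 194 and 191 in wild type. The groups overlapped, and the difference was 0.09 (SE 0.08, interval -0.10 to 0.28, limma adjusted p = 0.55). The probes for variant 4 changed sign between slides. At 3403 the knockout testes gave 1.35, 1.87 and 1.87 and the wild-type testes 2.13, 1.49 and 1.16, so the highest and the lowest testis were both wild type. Slide 1 alone gave -0.17 there and slide 2 alone 0.70, against 0.12 (SE 0.25, limma adjusted p = 0.81 over probes) over all arrays. The probe at 3045 had the same order of the extremes, with 0.551, 0.707 and 0.678 against 0.746, 0.574 and 0.514, with -0.07 (slide 1) and 0.40 (slide 2). The Odf2 probe at 705 had a difference of -0.12 (limma adjusted p = 0.34 over probes). Over all members 0 of 15 probes were called, against 293 of 28306 probes (1.04%), and no probe's difference was tested against that of another probe.

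Odf3 and Odf4 encode further proteins of the outer dense fibre group, the latter a membrane-associated protein of the sperm tail. Odf3 (chr7:148036775-148036834, mm9) was at 40.8, 41.4 and 41.6 in the knockout and 42.9, 41.5 and 46.2 in wild type, with wild-type replicate 2 inside the knockout range. Its difference was -0.07 (SE 0.05, interval -0.20 to 0.05, limma adjusted p = 0.43). Odf4 (chr11:68735158-68735186, mm9) was at 58.8, 61.5 and 59.3 in the knockout and 58.2, 59.4 and 59.6 in wild type, with the smallest standard error of the members. The coordinates given for its only probe span 29 bases, though the probe has 60. The Odf4 interval ran from -0.08 to 0.11 around 0.018 (SE 0.04, limma adjusted p = 0.82), or from 0.947-fold to 1.08-fold.

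**Figure D2:**
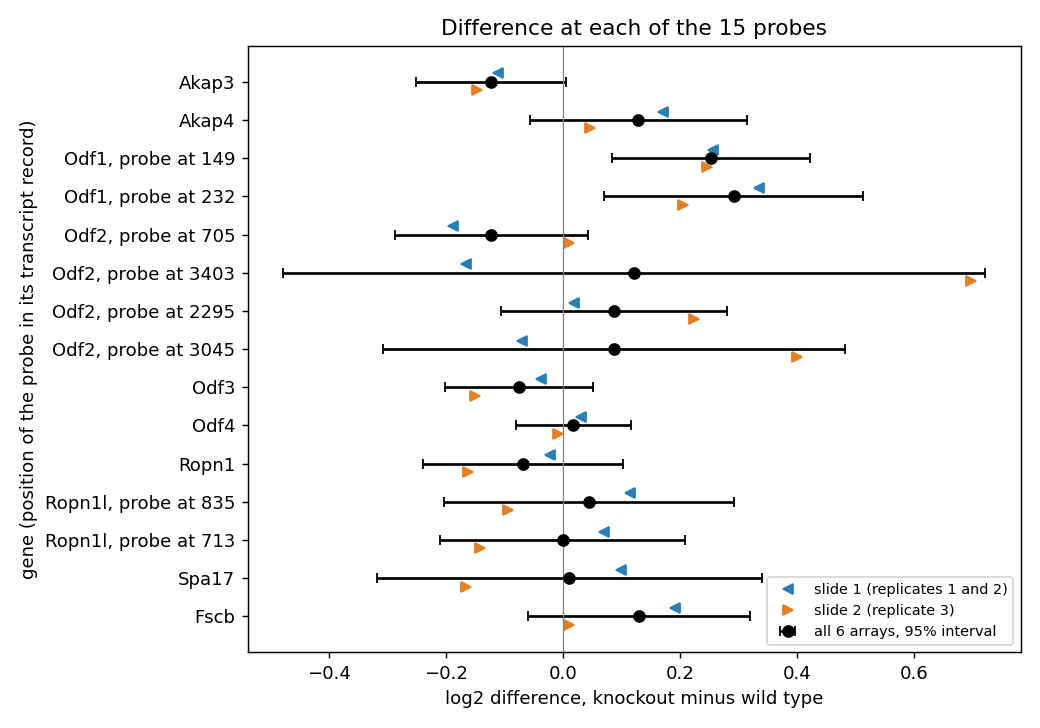
Log2 difference, knockout minus wild type, at each of the 15 probes (black points, bars are 95% intervals of the limma fit), with the difference within slide 1 (blue, replicates 1 and 2) and slide 2 (orange, replicate 3). Both Odf1 intervals lie above 0 before adjustment, and the Odf2 probe at 3403 runs from -0.17 on slide 1 to 0.70 on slide 2.

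Certain testes were the lowest or the highest of their group for most of the 10 genes. Knockout replicate 1 was the lowest knockout testis for 10 of 10 members (37.7% of all genes), and knockout replicate 3 was the highest for 7 of 10 (31.8%). Wild-type replicate 3 was the highest wild-type testis for 9 of 10 (39.4%), Odf2 being the exception, and wild-type replicate 2 was the lowest for 6 of 10 (34.5%). Both replicates numbered 3 are the arrays of slide 2, so for them testis and slide cannot be told apart. Replicates 1 and 2 of both genotypes were on slide 1, so knockout replicate 1 was below knockout replicate 2 within a slide. With quantile normalization, an alternative looked at for this order after seeing the data, knockout replicate 1 was lowest for 6 of 10 members and wild-type replicate 3 highest for 8 of 10. Centred on each gene's mean, the median of the members was -0.04, 0.04 and 0.09 in the 3 knockout testes and -0.02, -0.09 and 0.11 in the 3 wild-type testes. The range among the wild-type testes of that median was thus larger than the median difference between genotypes (0.03). The median log2 SD of the members was 0.057 in the knockout and 0.12 in wild type (all genes, 0.054 and 0.086), and the wild-type SD was the larger for 7 of 10 members (68.1% of all genes).

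Markers of elongating spermatids followed this pattern in part, and those of round spermatids did not in the knockout testes. For 6 elongating spermatid markers (Prm1, Prm2, Tnp1, Tnp2, Hils1 and Gsg1, most of which encode chromatin proteins of the condensing nucleus) the same centred median was -0.08, 0.08 and 0.07 in the knockout and -0.018, -0.07 and 0.04 in wild type. Replicate 1 was again lowest in the knockout, but replicate 2 rather than 3 was highest. All 6 were well above background on every array, 0 of 6 were called, and their summed scaled signal was 1169 to 1316 in the knockout and 1178 to 1245 in wild type. Their part in the members' order was not tested. For 6 round spermatid markers the centred median was 0.07, 0.05 and 0.012 in the knockout, with replicate 1 highest, and -0.06, -0.05 and -0.0036 in wild type, and their sum was 118 to 121 and 110 to 119. The sums of spermatocyte markers (20.1 to 20.9 and 19.6 to 21.0) and Leydig cell markers (19.6 to 20.5 and 17.8 to 22.7) overlapped. Of the 6 spermatocyte markers 3 did not overlap, in both directions: Sycp1 (0.15), Spo11 (-0.10) and Mlh3 (-0.16), against 31.6% of all genes. The Leydig sum is mostly that of Cyp17a1 (0.017). Of the 5 tested Leydig markers 3 lay above 0 and 2 below, with Cyp11a1 at -0.25 (overlapping). Sums were higher in the knockout for Sertoli cell markers (131 to 133 against 121 to 126) and macrophage markers (1.97 to 2.34 against 1.88 to 1.91). The Sertoli sum is mostly that of Clu (difference 0.09, overlapping) and Amhr2 (0.08, not overlapping). Of the 6 Sertoli markers all lay above 0, and 3 did not overlap, against 31.6% of all genes. Of the macrophage markers 5 lay above 0 and 3 did not overlap, while Cx3cr1 was at -0.46. Adgre1 was at 0.791 in knockout replicate 3, against 0.554 and 0.535 in knockout replicates 1 and 2. Sums were lower for spermatogonia markers (14.3 to 14.5 against 15.9 to 17.9) and for peritubular and endothelial markers (10.1 to 11.0 against 11.3 to 11.7). The peritubular and endothelial sum is mostly that of Acta2 (difference -0.17, no overlap). The other tested markers of that list overlapped between the groups: Vwf (-0.07), Myh11 (-0.03), Cdh5 (-0.0042) and Tek (0.13). The spermatogonia sum is mostly that of Stra8 (difference -0.42) and Uchl1 (-0.19), while the other 3 tested markers, Gfra1, Kit and Dmrt1, lay above 0 and the list median was 0.021. None of these lists had a called gene, and the part of these cells in the members' levels was not tested. Of 6 epididymis markers, Lcn5, Lcn8 and Adam7 were not well above background on any array, and 2 (Lcn9 and Rnase10) were on all. The epididymis sum was 0.350 to 0.385 in the knockout and 0.287 to 0.341 in wild type, and Rnase10 had a difference of 0.24 (limma adjusted p = 0.10) with no overlap.

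**Figure D3:**
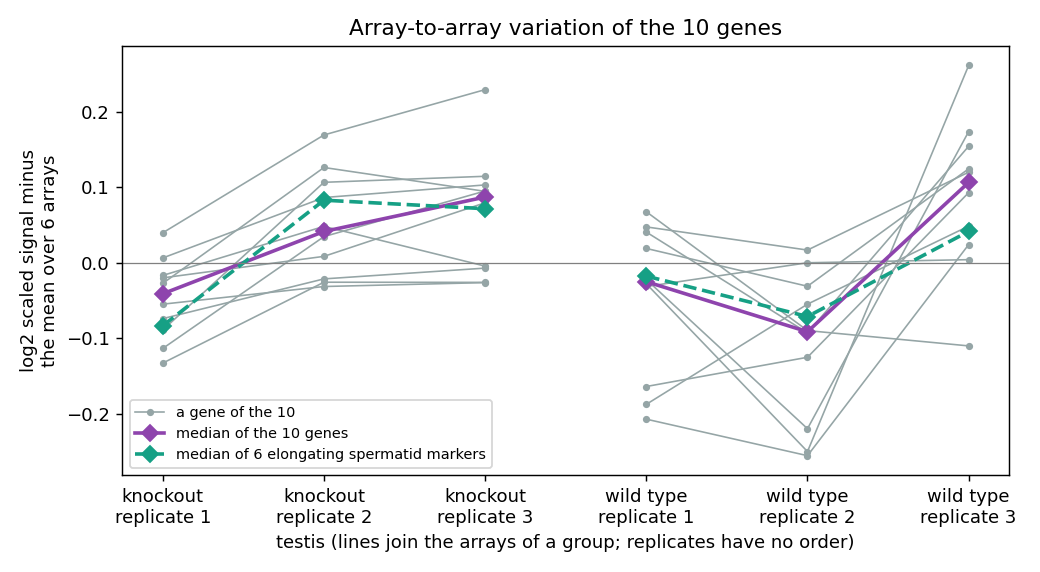
Log2 scaled signal in each testis minus the gene's mean over the 6 arrays, for the 10 genes (grey), their median (purple) and the median of 6 elongating spermatid markers (green, dashed); lines join the arrays of a group only to guide the eye. Both medians are lowest in replicate 1 among the knockout testes and lowest in replicate 2 and highest in replicate 3 among the wild-type testes.

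The tested genes whose profile over the 6 arrays was most like the members' median profile were Dnajb6 (Pearson r = 0.991), which encodes a DNAJ co-chaperone, Ensa (0.990), which encodes a phosphatase regulator, and Mlf1 (0.989). They were picked as the 3 highest of all named genes, so the values are a description. Their own differences were 0.020, 0.011 and 0.08, and none was called.

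Over the 3 lists of genes related to the members (12, 12 and 15 tested), 1, 0 and 1 genes were called, against 2.46% of all genes. These lists were chosen with earlier results of these data known, so the counts are a description. Of 12 fibrous sheath partners, which include genes of sheath-bound glycolytic enzymes, 1 rose (Fsip1) and 0 fell, against 1.21% and 1.25%. Of their differences 11 of 12 were above 0, against 9353 of 18976 over all genes. Their median was 0.08 (0.12 with normexp, 0.11 without wild-type replicate 3), against -0.0024 over all genes. Fsip1 encodes a fibrous sheath interacting protein that binds AKAP4. Fsip1 (chr2:118030796-118030855, mm9) was at 14.4, 13.8 and 13.9 in the knockout and 8.03, 9.25 and 8.85 in wild type. The knockout testes were tightly grouped and well above the wild-type testes, with a difference of 0.69 (SE 0.06, 1.62-fold, limma adjusted p = 0.024), 0.71 on slide 1 and 0.66 on slide 2. A second Fsip1 probe (chr2:118074040-118074099, mm9) had a difference of 0.80 (limma adjusted p = 0.022 over probes). The Fsip1 call was lost, with adjusted p of 0.072, 0.13, 0.12 and 0.066, without knockout replicate 1, 2 or 3 or wild-type replicate 1, and at 0.093 with no filter on dim probes.

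Of 12 cAMP and protein kinase A genes, whose products make cAMP, respond to it or anchor the kinase, 0 were called and 3 passed at an unadjusted limma p under 0.05, against 4532 of 18976 genes. For this list 10 of 12 differences were above 0 (9353 of all genes), with a median of 0.08 (0.019 with the mean of probes). The smallest p belonged to Akap14, an anchoring protein of cilia and flagella, at 0.30 (SE 0.07, limma adjusted p = 0.078), with 1.74, 1.64 and 1.66 in the knockout against 1.23, 1.45 and 1.41. Next came Prkar1b, a regulatory subunit of the kinase, at 0.30 (SE 0.07, limma adjusted p = 0.079), with 0.227, 0.228 and 0.226 against 0.170, 0.204 and 0.181. In both, all 3 knockout values lay above all wild-type values. Prkar2b, the third gene under that unadjusted limit, was lower in the knockout (-0.18) with no overlap. Of this list 4 of 12 genes did not overlap, against 31.6% of all genes.

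Of 16 outer dense fibre partners and paralogues, 15 were tested (Odf3l2 was not). Of these 0 rose and 1 fell, Odf3b, against 1.21% and 1.25% of all genes. Here 9 differences were above 0 and 6 below (9353 above and 9623 below over all genes). The list median was 0.07 (0.011 and 0.039 without wild-type replicate 1 or 2, 0.025 with quantile normalization and 0.024 in the deposited table). Odf3b, a paralogue of Odf3 (chr15:89207924-89207983, mm9), was at 12.8, 13.7 and 12.8 in the knockout and 16.4, 15.9 and 16.6 in wild type, 1.24-fold lower with no overlap. The Odf3b difference was -0.31 (SE 0.05, limma adjusted p = 0.042), and -0.28 and -0.37 within slides, beside -0.07 for Odf3 itself. The Odf3b call was lost, with adjusted p of 0.12, 0.15 and 0.15, without knockout replicate 1, 2 or 3, and at 0.13 and 0.058 without wild-type replicate 1 or 3. It was also lost with normexp background correction (0.087), with the slide as a block (0.063) and with no filter on dim probes (0.13).

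**Figure D4:**
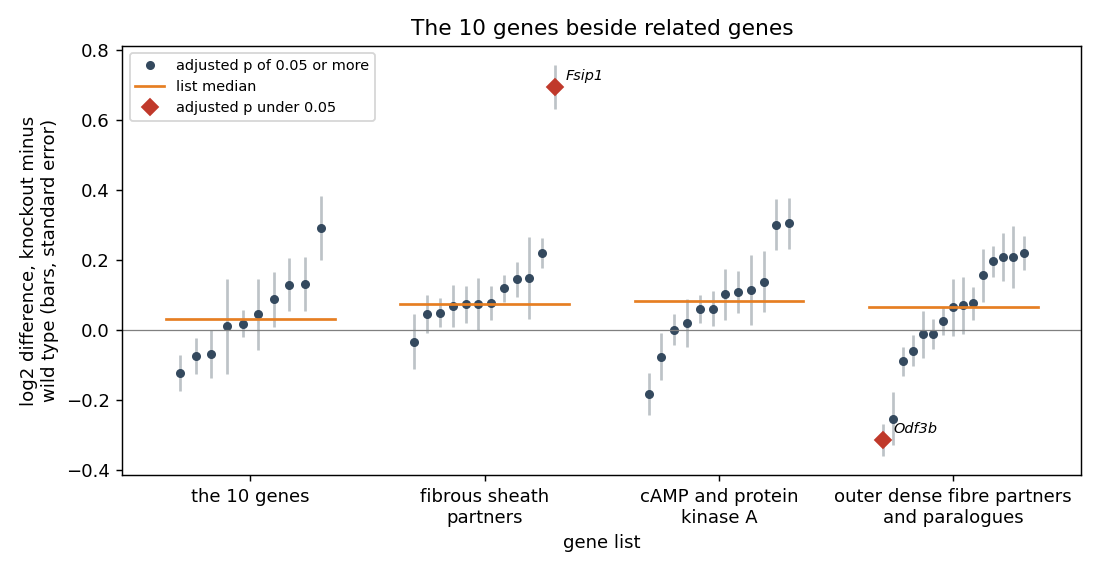
Log2 difference, knockout minus wild type, of every tested gene in the 10-gene set and in 3 lists of related genes (points, bars are standard errors; orange lines are list medians; red diamonds have a limma adjusted p under 0.05). Fsip1 (0.69) and Odf3b (-0.31) are called, and the 10 genes lie between -0.12 and 0.29 with none called.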

How the data were processed

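Total RNA from 3 knockout and 3 wild-type testes was measured on single-colour arrays. The submitters deposited 1 scanner file per array, written by Feature Extraction (Agilent; version 10.7.3.1 per the file headers), and the processed signal used here is a spot intensity from which background had been removed per the file headers. They also deposited a table of log2 values whose processing steps are not given in the sources used here; it served as an alternative. Other deposited columns (spot flags, coordinates) were taken unchanged, named per the file headers. Probe coordinates are on mm9 per the file headers.

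Each spot's log2 signal was set relative to the 75th percentile of its array and spots of a probe were averaged, leaving out controls and outlier-flagged spots. Probes entered the test if all unflagged arrays of either genotype showed them well above background and each genotype had 2 or more values, and the brightest probe stood for a gene. The genotypes were compared by lmFit and eBayes of limma 3.58.1 under R 4.3.3, and p-values were adjusted (Benjamini-Hochberg) over 18976 genes, or over all 28306 probes where a value is said to be over probes. Intervals of 95% are for single genes, without adjustment. The series text gives n as mice, so p-values measure the spread between these animals. Precision is limited by having 3 arrays in each group.

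The 10 genes, the lists of related genes and markers, and the rules were chosen with earlier results of these data known. The genes named are the 10 members with every probe, the called genes of 3 related lists or, with none called, the 2 of smallest p, Prss37, and the 3 genes with the profile most like the members' median by Pearson correlation. Prkar2b and single cell type markers are named besides, to show differences within their lists. No list was tested as a set. Zbtb16 and Insl3 of the marker lists were not matched to a probe, and Pecam1 was not well above background. Motifs were searched on both strands of the 250 bases before each start in a RefSeq promoter table (GRCm38.p6), which had entries for 9 of 10 members. Samples were also compared within slides. There were 15 alternatives: other background correction, normalization, filter, probe and variance choices, the deposited table, slide or replicate number as a block, and each of 6 arrays left out.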

Additional observations from a re-analysis of the deposited data

How the results depend on the processing

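No member and no member probe was called under any of the 15 alternatives; the smallest adjusted p of a member was 0.064 (Odf1, without wild-type replicate 3). Of 150 member values under alternatives, 137 kept their sign and 13 reversed. Odf4 went to -0.024 with quantile normalization, -0.022 in the deposited table and -0.0015 at the lowest with an array left out (highest 0.031). Ropn1l went to -0.063 with quantile normalization and in the deposited table (-0.059), and ranged from -0.053 to 0.14 with an array left out. Spa17 went to -0.0027 with normexp, -0.011 with quantile normalization and -0.010 in the deposited table, and ranged from -0.11 to 0.14 with an array left out. With an array left out, the Odf2 probe at 3403 ranged from -0.087 to 0.36, the Odf2 probe at 3045 from -0.029 to 0.24 and the other Ropn1l probe from -0.075 to 0.088. Calls over all genes were 8 without the filter on dim probes, 275 with the mean of probes, 1270 with variance trend and robust fitting, 79 with the slide as a block, and 2 to 779 with an array left out (2 without knockout replicate 2, 779 without wild-type replicate 2), against 467. Calls among fibrous sheath partners were 0 without the filter, 2 with trend and robust fitting and 0 to 1 with an array left out. Those among cAMP and protein kinase A genes were 1 with trend and robust fitting and 0 to 1 with an array left out. Those among outer dense fibre partners were 0 with normexp, without the filter and with the slide block, 3 with trend and robust fitting, and 0 to 2 with an array left out. With fewer arrays the fit has fewer samples; for the other settings the cause was not tested.

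Same-numbered knockout and wild-type testes did not deviate together (correlations of their deviations -0.05, -0.03 and 0.14), so the numbers were not taken as pairs. With the replicate number as a block all the same, calls were 2 over all genes and 0 in each of the 3 related lists and among the members.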
